A study of Homo sapiens with 6 samples.

Results

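Transcripts of 37 genes that build the cell-cell junctions of keratinocytes were followed in HaCaT cells, an immortalised human keratinocyte line. They were rows of the deposited table whose symbol matched a list of desmosome, adherens junction, tight junction, gap junction and junctional polarity genes. Of these, 34 reached 1 RPKM (reads per kilobase of transcript, scaled to the library's mapped reads) in at least 1 library and were kept, among 12925 such genes of the 27945 in the table. Kept genes numbered 10 of 13 for the desmosome, 5 of 5 for the adherens junction, 12 of 12 for the tight junction, 4 of 4 for the gap junction and 3 of 3 for polarity. The 6 bulk RNA libraries came from MAPK14-null cells (p38α knockout, KO) given IL-1α in PBS (2 libraries) or PBS alone (unstimulated, 1 library), and from wild-type (WT) cells given IL-1α (2 libraries) or PBS alone (1 library), each for 4 h. All cells were grown in DMEM with fetal bovine serum. The labels do not describe the MAPK14 edit, the number of knockout clones, or whether replicates were separate cultures, so p-values reflect only how far these libraries lie from each other. In bulk RNA, fewer cells of a kind and less RNA per cell cannot be told apart.

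Keratinocytes are held together by desmosomes, in which desmogleins and desmocollins bind across the gap between cells and plakoglobin, plakophilins and desmoplakin tie them to keratin filaments. Adherens junctions do the same for actin through classical cadherins and catenins, tight junctions seal the space between cells with claudins and occludin, and gap junctions join neighbouring cytoplasms through connexin channels. Junction proteins are remodelled when epidermis is wounded or inflamed, and p38α is a stress kinase that acts downstream of the IL-1 receptor.

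Depth was 16294311 to 34967367 reads per library, of which 80.1% to 83.2% lay in exons. MAPK14 itself was at 10.99 and 7.41 RPKM in KO cells with IL-1α and 11.3 RPKM in KO cells without it, against 13.3 and 14.8 RPKM in WT cells with IL-1α and 14.4 RPKM in WT cells without it. A level over the whole gene does not show a small edit. All 6 keratinocyte markers examined were present, with a summed level of 3333 to 3846 RPKM in KO libraries and 5501 to 6620 RPKM in WT libraries. KRT14, KRT17 and SFN were lower in every KO library than in any WT library, while KRT5, KRT6A and TP63 overlapped between genotypes. The part of these differences in the junction values was not tested. Of 4 melanocyte and 5 leukocyte markers none reached 1 RPKM, while 2 of 7 fibroblast markers (COL1A1 and LUM, list sum at most 2.59 RPKM) and 1 of 4 endothelial markers (CDH5) did. The 2 KO IL-1α libraries correlated at 0.9687 across genes on the log2(RPKM + 0.5) scale, against 0.9853 for the WT IL-1α pair. KO IL-1α replicate 1 correlated at 0.9822 with the unstimulated KO library, and replicate 2 at 0.9601. WT IL-1α replicates 1 and 2 correlated at 0.9618 and 0.9512 with the unstimulated WT library. Which KO IL-1α replicate is the less typical cannot be told from 2 libraries.

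In the additive limma model described below, IL-1α raised 1 of the 34 junction genes past the threshold, against 0.905% of all genes. This was GJB2, which encodes connexin 26, a gap junction channel protein of keratinocytes and of the inner ear (chromosome 13, 20761604 to 20767114, minus strand, hg19). The other 3 gap junction genes measured, among them the neighbouring GJB6 (connexin 30; chromosome 13, 20796101 to 20806534, minus strand), did not pass. The 250 bases before a RefSeq start of these neighbours, and of the tight junction gene CLDN4, are given from the RefSeq promoter table (GRCh38.p14). They run 5′ to 3′ on each gene's strand. These genes carry the main contrasts of the text, and CLDN4 is discussed with the genotypes. Capitals mark each match to the GC box GGGCGG or to the AP-1 motif TGANTCA on either strand.
GJB2 (chr13:20192939-20193188, minus strand): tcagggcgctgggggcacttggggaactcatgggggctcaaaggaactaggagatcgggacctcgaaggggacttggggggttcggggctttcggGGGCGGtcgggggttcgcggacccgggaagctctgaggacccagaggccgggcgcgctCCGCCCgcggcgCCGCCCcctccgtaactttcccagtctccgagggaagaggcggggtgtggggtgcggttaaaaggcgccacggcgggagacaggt
GJB6 (chr13:20230979-20231228, minus strand): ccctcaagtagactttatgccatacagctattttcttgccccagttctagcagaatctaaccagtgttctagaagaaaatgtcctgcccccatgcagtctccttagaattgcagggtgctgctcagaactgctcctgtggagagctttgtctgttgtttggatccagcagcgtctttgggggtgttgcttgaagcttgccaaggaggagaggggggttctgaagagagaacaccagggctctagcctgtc
CLDN4 (chr7:73830746-73830995, plus strand): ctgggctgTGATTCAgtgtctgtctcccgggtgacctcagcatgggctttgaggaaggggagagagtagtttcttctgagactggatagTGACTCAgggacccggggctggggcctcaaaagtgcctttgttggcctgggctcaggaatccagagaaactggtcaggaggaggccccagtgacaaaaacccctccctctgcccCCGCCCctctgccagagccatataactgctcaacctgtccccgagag

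The GJB2 window held 3 GC boxes, which lay 150, 92 and 80 bases before the start, and its G and C bases made up 70% of the sequence. In the GJB6 window no GC box was found and 50.8% of bases were G or C. The GJB6 and GJB2 windows are spaced differently from the hg19 starts of the counted genes. The GJB6 window may therefore precede another start than that of the counted transcript. CLDN4 had 2 AP-1 matches, TGATTCA and TGACTCA, 236 and 155 bases before the start, and 1 GC box at 42 bases. Of the 34 kept genes, 23 had a window in the table, with 34 windows in all. The GC box occurred in 23 of those 34 windows (67.6%) and in 42.6% of all 35116 windows of the same length. The AP-1 motif occurred in 3 (8.82%; CLDN4, GJA1 and PERP) against 6.57% of all windows, and the NF-κB consensus motif in 2 (5.88%; CLDN1 and CTNNA1) against 9.96%. The grainyhead-like motif AACCNGTT occurred in 1 (2.94%; CGN) against 1.49%, and the E-box CACCTG of SNAI factors in 10 (29.4%) against 17.5%. All motifs were searched on both strands; the matches describe letters only.

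The levels of the junction genes spanned a wide range, with JUP and CLDN7 at the top. JUP, which encodes plakoglobin, a linker shared by desmosomes and adherens junctions, was at 190.2 to 465 RPKM in KO libraries and 505 to 657 RPKM in WT libraries. CLDN7, a claudin found along the lateral membrane, was at 215 to 282 RPKM in KO libraries and 284 to 376 RPKM in WT libraries. At the low end were GJB6 (0.159 to 2.62 RPKM over all libraries), PARD6B (1.77 to 3.13 RPKM), CLDN23 (2.33 to 3.43 RPKM) and GJA1 (2.03 to 5.54 RPKM).

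**Figure D1:**
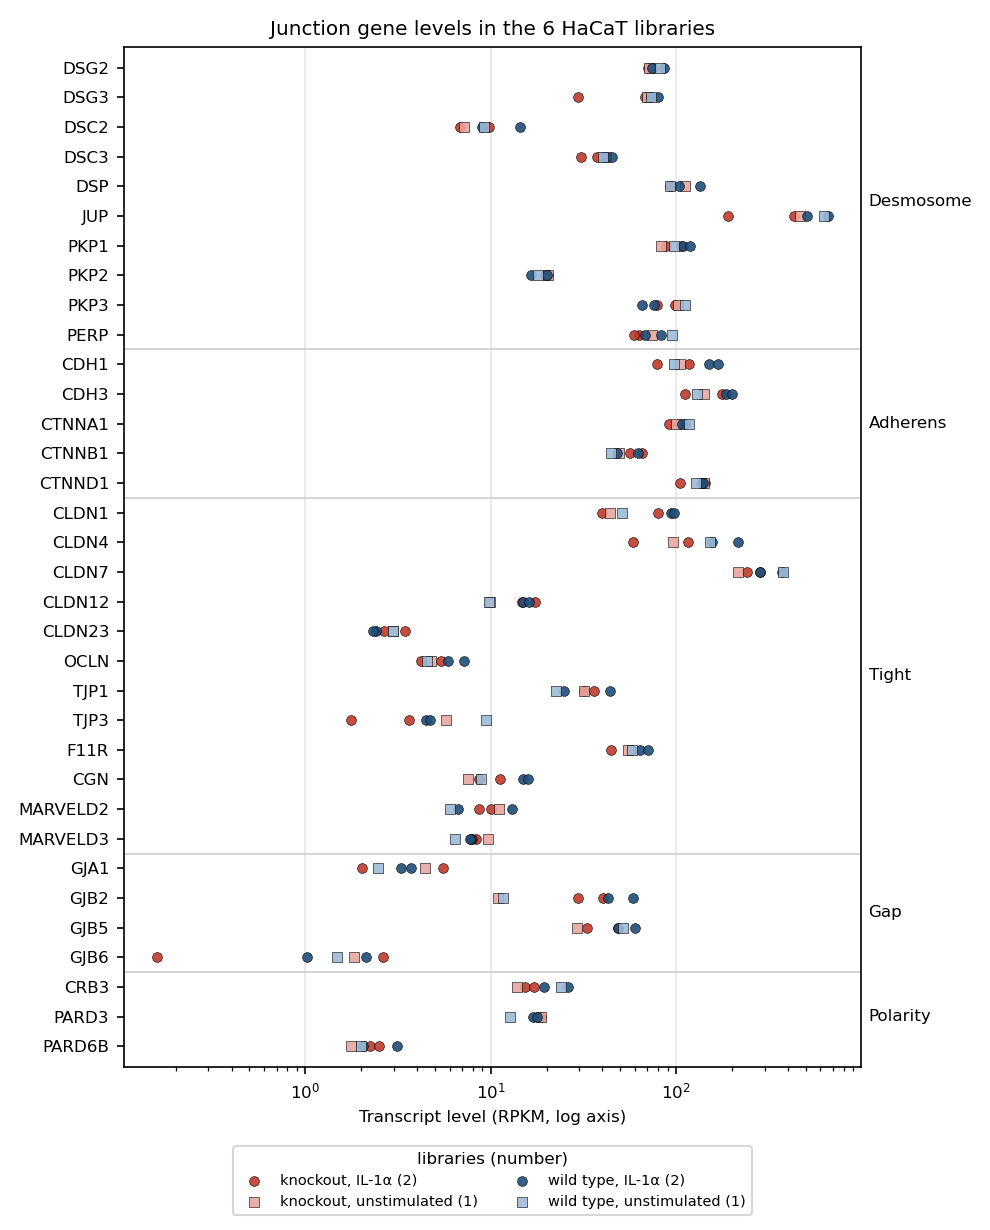
Transcript levels of the 34 kept junction genes in each library, in RPKM on a log axis, grouped by junction type. Circles are IL-1α libraries and squares unstimulated libraries, red for knockout and blue for wild type. JUP is the highest row, and the low outlying circle of GJB6 (0.159 RPKM) is KO IL-1α replicate 2.

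Of the 6 desmosomal cadherins listed, DSG2, DSG3, DSC2 and DSC3 were present, and DSG1 and DSC1 were not. DSG4, a desmoglein outside the list, was at 2.36, 1.39 and 6.72 RPKM in the KO libraries, against 2.63, 2.80 and 5.58 RPKM in the matching WT libraries. DSG1, the desmoglein of differentiated layers, had 0 to 6 reads per library (at most 0.050 RPKM), and DSC1, its desmocollin counterpart, had 0 to 2 reads. A count of 3 reads would correspond to 0.0118 to 0.0254 RPKM for DSG1 and to 0.0205 to 0.0439 RPKM for DSC1, so both lay near or under what this depth resolves. CDSN, which encodes corneodesmosin, is annotated at 6 places of the chromosome 6 haplotypes and had 0 to 1 reads, so it was not measured. These 3 genes entered no test.

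Within cadherin pairs the levels per length kept a similar order in most libraries. The ratio of CDH3 (P-cadherin) to CDH1 (E-cadherin) was 1.5, 1.42 and 1.35 in the 2 KO IL-1α libraries and the unstimulated KO library, against 1.23, 1.19 and 1.33 in the matching WT libraries. The ratio of DSG3 to DSG2 was 0.960, 0.396 and 0.976 in these KO libraries, against 0.991, 0.925 and 0.901 in the WT libraries. KO IL-1α replicate 2 alone stood far below the others for DSG3. The ratio of DSC3 to DSC2 was between 3.10 and 5.82 in KO libraries and between 3.14 and 4.62 in WT libraries.

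The response to IL-1α was tested with limma on log2(RPKM + 0.5) over all 12925 genes, with Benjamini-Hochberg adjustment at 0.05 and genotype and stimulation as additive terms, 4 IL-1α against 2 unstimulated libraries. GJB2 was at 40.5 and 29.7 RPKM in KO cells with IL-1α, against 10.96 RPKM without it. In WT cells it was at 58.8 and 42.8 RPKM with IL-1α, against 11.6 RPKM without it. All 4 IL-1α libraries lay above both unstimulated libraries. The log2 change was 1.84 ± 0.203 (SE), or 3.58-fold (adjusted p = 0.00668), and by p GJB2 ranked number 34 of the 12925 genes. Of all genes, 0.905% passed as higher and 0.162% as lower. The adjusted p was 0.0855 without WT IL-1α replicate 2 and 0.0765 when every gene with a value above 0 was tested.

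Within each genotype, where 2 IL-1α libraries stand against 1, no junction gene passed. The log2 change of GJB2 was 1.62 ± 0.284 (SE, adjusted p = 0.241) in KO cells and 2.07 ± 0.284 (SE, adjusted p = 0.0621) in WT cells. In rebuilt reads the IL-1α level was 3.13 times the unstimulated level in KO cells (exact 95% interval 2.91 to 3.37) and 4.33 times in WT cells (3.93 to 4.78); these intervals cover counting error only. The KO response minus the WT response was -0.45 on the log2 scale (adjusted p = 0.966), so the responses were not shown to differ. Among all genes 0.0696% passed as higher and 0% as lower in KO cells, and 0.201% as higher and 0.0155% as lower in WT cells. In the response difference 0 genes passed in either direction (0%), although 3.76% were higher and 0.627% lower at an unadjusted p under 0.05, none of them junction genes.

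The other connexins did not pass for IL-1α. GJA1, the widely expressed connexin 43, was at 5.54 and 2.03 RPKM in KO cells with IL-1α against 4.44 RPKM without it, and at 3.28 and 3.73 RPKM in WT cells with IL-1α against 2.46 RPKM without it. GJB5, a connexin of stratified epithelium, was at 33.0 and 48.9 RPKM in KO cells with IL-1α against 29.2 RPKM without it, and at 60.1 and 48.4 RPKM in WT cells with IL-1α against 51.8 RPKM without it. GJB6 was at 2.62 and 0.159 RPKM in KO cells with IL-1α against 1.82 RPKM without it, and at 2.13 and 1.022 RPKM in WT cells with IL-1α against 1.48 RPKM without it. For all 3 the IL-1α and unstimulated libraries overlapped, and the GJB6 value of KO IL-1α replicate 2 rests on 9 reads. The ratio of GJB2 to GJA1 was 7.31 and 14.6 in KO cells with IL-1α against 2.47 without it, and 17.9 and 11.5 in WT cells with IL-1α against 4.73 without it.

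**Figure D2:**
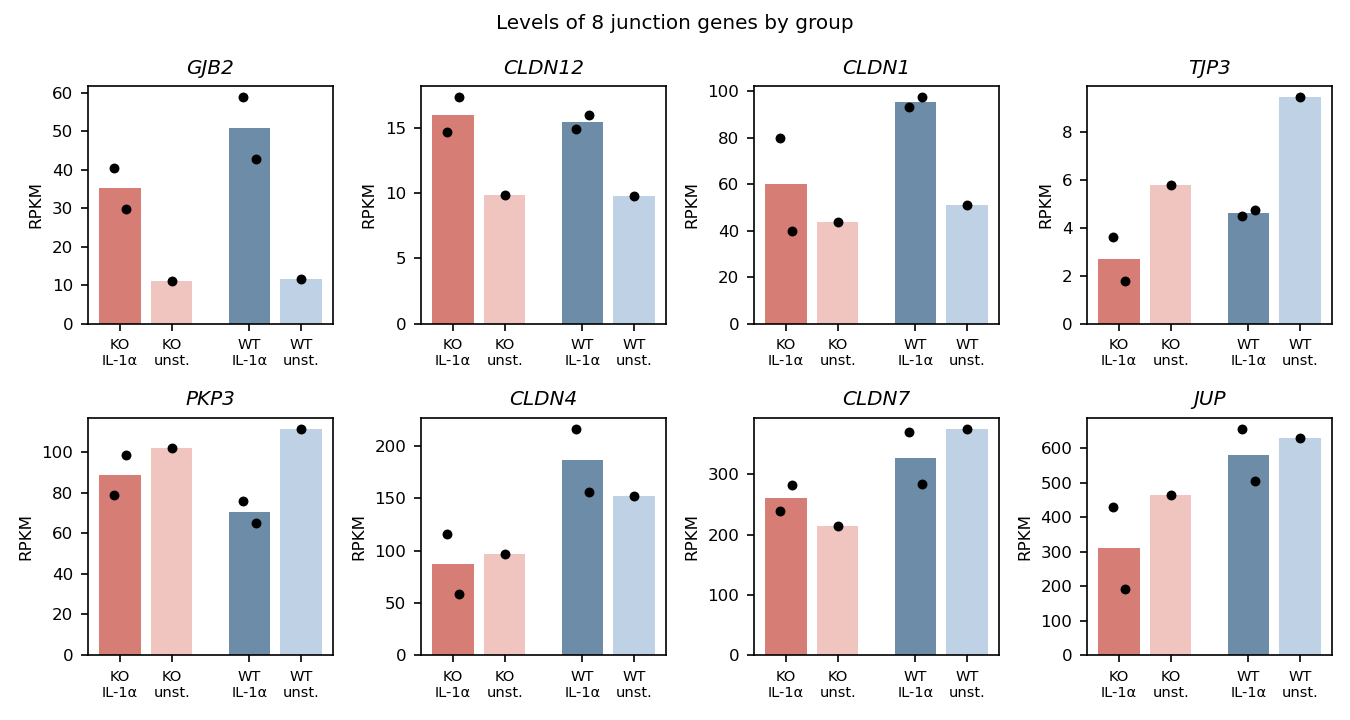
Levels of 8 junction genes in RPKM (linear axis from 0); bars are group means and points single libraries, 2 with IL-1α and 1 without (unst.) per genotype. GJB2 is the gene that passed for IL-1α; JUP, CLDN4 and CLDN7 are lower in all 3 KO libraries than in any WT library.

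The tight junction genes gave the next largest responses in the additive model, in both directions. CLDN12, a claudin without the usual scaffold-binding tail, was at 14.7 and 17.3 RPKM in KO cells with IL-1α against 9.88 RPKM without it. In WT cells it was at 14.9 and 16.0 RPKM with IL-1α against 9.78 RPKM without it. The groups did not overlap, yet the log2 change of 0.65 ± 0.139 (SE) had an adjusted p of 0.0851. TJP3, which encodes the scaffold ZO-3, was at 3.61 and 1.76 RPKM in KO cells with IL-1α against 5.76 RPKM without it. In WT cells it was at 4.49 and 4.72 RPKM with IL-1α against 9.43 RPKM without it. All 4 IL-1α libraries lay below both unstimulated libraries, with a log2 change of -0.999 ± 0.235 (SE, adjusted p = 0.115); without KO IL-1α replicate 1 it was -1.18 (adjusted p = 0.0392). APBA3, on the opposite strand, overlaps TJP3 and reached 5.02 RPKM, so with the strand setting of the counting not given the 2 genes may share reads.

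CLDN1, the claudin most tied to the epidermal water barrier, was at 79.8 and 40.0 RPKM in KO cells with IL-1α against 43.8 RPKM without it. In WT cells it was at 93.3 and 97.4 RPKM with IL-1α against 50.8 RPKM without it. Both WT libraries and KO replicate 1 lay above the unstimulated libraries and KO replicate 2 lay below them. The log2 change was 0.63 ± 0.268 (SE, adjusted p = 0.311), and 0.88 without KO IL-1α replicate 2 (adjusted p = 0.0298). CGN, which encodes cingulin, a cytoplasmic plaque protein, was at 11.2 and 8.69 RPKM in KO cells with IL-1α against 7.56 RPKM without it, and at 14.9 and 15.9 RPKM in WT cells with IL-1α against 8.89 RPKM without it. Its log2 change in WT cells was 0.76 ± 0.227 (SE, adjusted p = 0.187).

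In the additive model desmosome and adherens junction genes had smaller responses, none past the threshold. Within KO cells the log2 change was -0.70 ± 0.478 (SE) for JUP and -0.62 ± 0.448 (SE) for DSG3. Over the settings tried these ranged from -1.29 to -0.11 and from -1.21 to -0.03, and neither passed. PKP3, a plakophilin, was at 78.9 and 98.7 RPKM in KO cells with IL-1α against 102 RPKM without it, and at 76.0 and 65.2 RPKM in WT cells with IL-1α against 111 RPKM without it. The IL-1α libraries all lay below the unstimulated ones, with a log2 change of -0.44 ± 0.176 (SE, adjusted p = 0.3). CDH1 was at 117 and 78.7 RPKM in KO cells with IL-1α against 105 RPKM without it, and at 151 and 168 RPKM in WT cells with IL-1α against 96.9 RPKM without it. In WT cells the log2 change of CDH1 was 0.72 ± 0.275 (SE, adjusted p = 0.251), while in KO cells its IL-1α libraries lay on both sides of the unstimulated one. The KO minus WT response of CDH1 was -0.84 ± 0.389 (SE, adjusted p = 0.966), and -0.56 without KO IL-1α replicate 2. Over the settings tried it ranged from -1.13 to -0.56. Of the polarity genes, PARD6B, which encodes a partner of PARD3 and atypical protein kinase C, was at 2.23 and 2.51 RPKM in KO cells with IL-1α against 1.77 RPKM without it, and at 2.04 and 3.13 RPKM in WT cells with IL-1α against 1.997 RPKM without it. Its log2 change was 0.31 ± 0.203 (SE, adjusted p = 0.483).

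Counted over the 34 genes, the IL-1α libraries did not overlap the unstimulated ones in 3 genes that were higher (CLDN12, GJB2 and PARD6B; 7.14% of all genes) and in 2 that were lower (PKP3 and TJP3; 13.2% of all genes). Without KO IL-1α replicate 2 these counts were 8 and 3 (9.08% and 19.2% of all genes). The median log2 change in the additive model was 0.05, against -0.09 over all tested genes, and 24 of 34 genes had a positive value, against 37.6% of all genes. By type the median was -0.05 for the desmosome, 0.28 for the adherens junction, 0.11 for the tight junction, 0.15 for the gap junction and 0.20 for polarity. In WT cells the median of the 34 genes was 0.25 with 25 positive, against -0.14 and 37% positive over all genes. In KO cells it was -0.02 with 14 positive, against -0.02 and 47.2% positive over all genes. Rescaling by the median of ratios moved the median of all genes in WT cells to -0.01 and that of the junction genes to 0.39, with 29 of 34 positive. In KO cells, leaving out IL-1α replicate 2 gave a junction median of 0.06 with 20 positive. Leaving out IL-1α replicate 1 instead gave -0.12 with 21 negative.

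**Figure D3:**
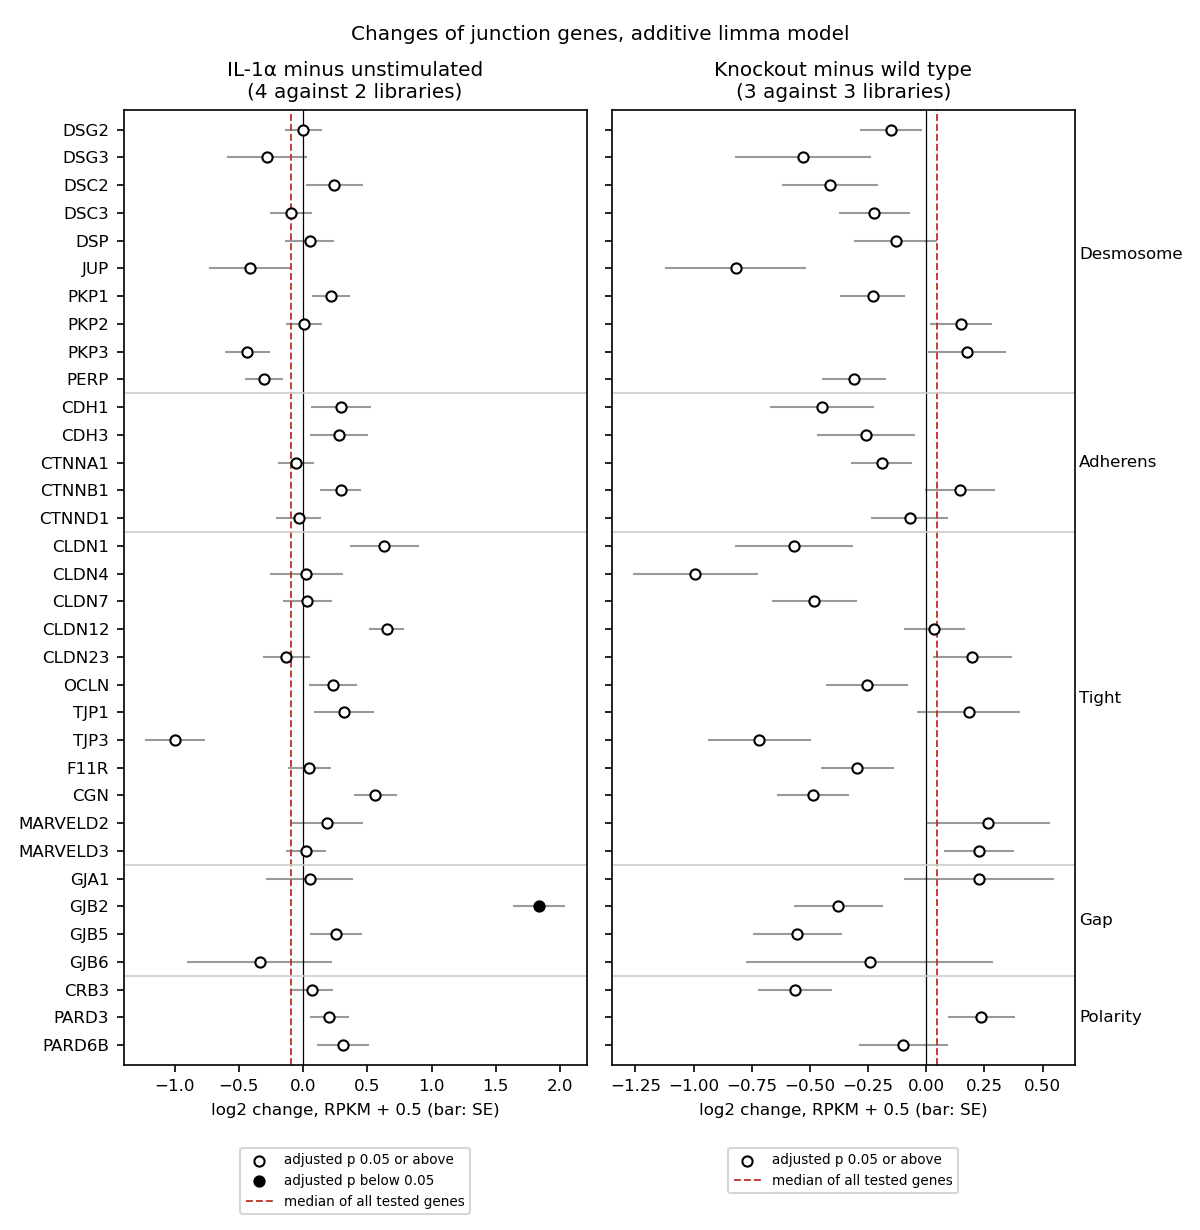
Log2 changes of the 34 genes (RPKM + 0.5) with SE bars in the additive limma model, for IL-1α minus unstimulated (left, 4 against 2 libraries) and KO minus WT (right, 3 against 3). The filled point is GJB2, the gene with an adjusted p under 0.05; the dashed lines mark the medians of all tested genes, -0.09 and 0.05.

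No junction gene passed between genotypes in either model. Under IL-1α, with 2 KO against 2 WT libraries, 0.0464% of all genes passed as higher and 0.108% as lower. At an unadjusted p under 0.05, 0 junction genes were higher and 5 were lower in KO cells (JUP, CDH1, CLDN4, TJP3 and CGN), against 9.97% and 4.93% of all genes. With the unstimulated libraries added, 3 against 3, 1.34% of all genes passed as higher and 1.32% as lower. At an unadjusted p under 0.05, 0 junction genes were then higher and 7 lower, against 13.9% and 8.71% of all genes.

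Most junction genes nevertheless had lower values in KO than in WT cells. Under IL-1α 26 of the 34 had a negative log2 difference, against 38.9% of all genes, with a median of -0.33, against 0.09 over all genes. The 2 KO libraries lay below both WT libraries in 18 genes (16.3% of all genes) and above both in 4 (PKP3, CLDN23, MARVELD3 and PARD3; 32.4% of all genes). Without KO IL-1α replicate 2, 24 of 34 genes were lower with a median of -0.19, 22 lay below both WT libraries (29.5% of all genes) and 8 above (47% of all genes). Without KO IL-1α replicate 1 instead, 26 of 34 were lower with a median of -0.34, against 39.6% of all genes. With median-of-ratios rescaling 30 of 34 were lower with a median of -0.43, while the median of all genes was -0.01. With all libraries and no rescaling the median was -0.31 for the desmosome, -0.18 for the adherens junction and -0.36 for the tight junction. It was -0.45 for the gap junction and -0.08 for polarity. Over the settings tried it ranged from -0.71 to 0.15 for the gap junction and from -0.25 to 0.12 for polarity. The medians of the other types stayed negative, so the order of the types depended on the setting.

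CLDN4, a claudin that tightens the seal against sodium, had the largest genotype difference of the tight junction genes under IL-1α and in the additive model. It was at 116, 58.4 and 96.3 RPKM in the 2 KO IL-1α libraries and the unstimulated KO library, against 217, 156 and 152 RPKM in the matching WT libraries. All 3 KO libraries lay below all 3 WT libraries, and KO IL-1α replicate 2 was the lowest. The log2 difference was -0.99 ± 0.269 (SE, adjusted p = 0.0897) in the additive model and -1.16 ± 0.343 (SE, adjusted p = 0.237) under IL-1α. Leaving out KO IL-1α replicate 2 gave -0.67 under IL-1α, and leaving out KO IL-1α replicate 1 gave -1.65.

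CLDN7 was at 239.8, 282 and 215 RPKM in the KO libraries, against 371, 284 and 376 RPKM in the matching WT libraries. The groups did not overlap, although KO IL-1α replicate 2 and WT IL-1α replicate 2 nearly met. The log2 difference was -0.48 ± 0.181 (SE, adjusted p = 0.171) in the additive model and -0.32 ± 0.206 (SE, adjusted p = 0.502) under IL-1α. It was -0.80 without stimulation, with 1 library against 1. ELP5 lies on the opposite strand of CLDN7 and reached 26.5 RPKM. In the TJP3 values given with the IL-1α response, the highest KO library was the unstimulated one and exceeded both WT IL-1α libraries, so genotypes overlapped over the 6 libraries but not within a stimulation. The TJP3 log2 difference was -0.72 ± 0.221 (SE, adjusted p = 0.119) in the additive model. It was -0.46 without KO IL-1α replicate 2 and -0.96 without KO IL-1α replicate 1. CGN did not overlap under IL-1α, at -0.62 ± 0.185 (SE, adjusted p = 0.240), and neither did CLDN1, at -0.75 ± 0.316 (SE, adjusted p = 0.341). The CLDN1 difference was -0.26 without KO IL-1α replicate 2 and -1.24 without KO IL-1α replicate 1. F11R, which encodes the adhesion molecule JAM-A, was at 57.3, 44.5 and 54.9 RPKM in the KO libraries, against 63.6, 70.8 and 57.8 RPKM in the matching WT libraries, with no overlap.

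Of the remaining tight junction genes, OCLN, which encodes occludin, was at 5.38 and 4.19 RPKM in KO cells with IL-1α, against 5.88 and 7.21 RPKM in WT cells with IL-1α. Its unstimulated values were 4.79 RPKM in KO cells and 4.53 RPKM in WT cells. MARVELD2, which encodes tricellulin of three-cell contacts, was at 9.98, 8.67 and 11.03 RPKM in the KO libraries, against 6.70, 13.1 and 6.02 RPKM in the matching WT libraries. The WT IL-1α pair of MARVELD2 enclosed the KO pair, and its unstimulated log2 difference was 0.82. MARVELD3, a relative of occludin, was at 8.35, 7.95 and 9.63 RPKM in the KO libraries, against 7.86, 7.75 and 6.38 RPKM in the matching WT libraries. Every KO library lay above every WT library, narrowly under IL-1α. TJP1, which encodes the scaffold ZO-1, was at 31.8, 36.0 and 31.9 RPKM in the KO libraries, against 25.0, 44.1 and 22.5 RPKM in the matching WT libraries, and overlapped.

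Among desmosome genes, JUP had the largest genotype difference under IL-1α, in the additive model and without stimulation. It was at 430.5, 190.2 and 465 RPKM in the KO libraries, against 657, 505 and 631 RPKM in the matching WT libraries. The groups did not overlap, and KO IL-1α replicate 2 was the lowest. The log2 difference was -0.82 ± 0.303 (SE, adjusted p = 0.165) in the additive model and -1.01 ± 0.390 (SE, adjusted p = 0.319) under IL-1α. Without KO IL-1α replicate 2 these were -0.43 and -0.42, and without KO IL-1α replicate 1 they were -1.10 and -1.60. DSG3, the desmoglein of basal and lower suprabasal keratinocytes, was at 67.7, 29.7 and 69.4 RPKM in the KO libraries, against 73.0, 79.6 and 73.3 RPKM in the matching WT libraries. Its groups did not overlap, but KO IL-1α replicate 2 alone was far from the WT values. The log2 difference of -0.76 ± 0.366 (SE, adjusted p = 0.388) under IL-1α became -0.17 without KO IL-1α replicate 2. It became -1.34 without KO IL-1α replicate 1.

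Other desmosome genes differed less. DSP, which encodes desmoplakin, was at 94.2, 92.8 and 111 RPKM in the KO libraries, against 103, 135 and 92.3 RPKM in the matching WT libraries. PKP1 was at 87.9, 106 and 83.3 RPKM in the KO libraries, against 109, 119 and 97.0 RPKM in the matching WT libraries. PERP, a tetraspan membrane protein of desmosomes, was at 63.3, 59.5 and 74.0 RPKM in the KO libraries, against 82.7, 68.0 and 95.2 RPKM in the matching WT libraries. Within each stimulation the KO values of PKP1 and PERP were below the WT values, while DSP was higher in the unstimulated KO library than in the unstimulated WT library. PKP2, at 16.5 to 20.4 RPKM, and DSG2, at 70.5 to 86.1 RPKM, varied little over the 6 libraries. DSG2-AS1, on the opposite strand of DSG2, reached 9.02 RPKM. DSC2 was at 6.87 to 9.84 RPKM in KO libraries and 9.02 to 14.4 RPKM in WT libraries, and DSC3 at 30.5 to 41.7 RPKM in KO libraries and 40.4 to 45.3 RPKM in WT libraries, both with overlap.

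Among adherens junction genes, both cadherins were lower in KO than in WT cells under IL-1α, and of the catenins CTNNA1 did not overlap between genotypes. CDH1 under IL-1α, with the values given above, was lower in both KO libraries than in either WT library. Its log2 difference was -0.73 ± 0.225 (SE, adjusted p = 0.249), -0.44 without KO IL-1α replicate 2 and -1.01 without KO IL-1α replicate 1. CDH3 was at 176 and 112 RPKM in KO cells with IL-1α, against 185 and 199.8 RPKM in WT cells with IL-1α, a log2 difference of -0.46 that was -0.13 without KO IL-1α replicate 2 and -0.78 without KO IL-1α replicate 1. In the unstimulated libraries both were slightly higher in KO cells: CDH1 had 105 RPKM in KO cells and 96.9 RPKM in WT cells, and CDH3 had 142 RPKM in KO cells and 129 RPKM in WT cells. CTNNA1, which encodes α-catenin, was at 103, 92.0 and 99.2 RPKM in the KO libraries, against 112, 108 and 117 RPKM in the matching WT libraries, with no overlap. CTNNB1 (β-catenin) was at 44.8 to 65.1 RPKM over all libraries and CTNND1 (p120-catenin) at 105 to 144 RPKM, both with overlap. TMX2-CTNND1, a readthrough transcript on the same strand, reached 134 RPKM, so reads of CTNND1 cannot be assigned to it alone.

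For the gap junction, GJB2 under IL-1α was lower in both KO libraries than in either WT library, at -0.53 ± 0.231 (SE, adjusted p = 0.356). This difference was -0.31 without KO IL-1α replicate 2, -0.75 without KO IL-1α replicate 1 and -0.30 without WT IL-1α replicate 1. The unstimulated levels of GJB2 were 10.96 RPKM in KO cells and 11.6 RPKM in WT cells. The unstimulated read ratio of GJB2, KO over WT, was 0.944 with an exact 95% interval of 0.842 to 1.06. GJB5 had a log2 difference of -0.55 ± 0.190 (SE, adjusted p = 0.143) in the additive model. Its 48.9 RPKM in KO IL-1α replicate 2 lay above the 48.4 RPKM of WT IL-1α replicate 2, and without that KO library the difference was -0.75 (adjusted p = 0.0346). GJA1 then also passed, at 0.66 (adjusted p = 0.0472), against 0.22 with all libraries. These 2 of the 34 junction genes stand beside 911 of all 12925 genes that passed between genotypes in that setting.

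Of the polarity genes, CRB3, which encodes the apical protein Crumbs3, was at 15.3, 17.0 and 13.9 RPKM in the KO libraries, against 26.2, 19.4 and 23.9 RPKM in the matching WT libraries. All KO values lay below all WT values, and the log2 difference was -0.57 ± 0.159 (SE, adjusted p = 0.0977). DENND1C, on the opposite strand, overlaps CRB3 and reached 4.796 RPKM. PARD3 was at 18.7, 18.2 and 18.8 RPKM in the KO libraries, against 17.0, 17.8 and 12.7 RPKM in the matching WT libraries, and the groups did not overlap.

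Over 3 against 3 libraries, 7 junction genes lay lower in every KO library (DSG3, JUP, CTNNA1, CLDN4, CLDN7, F11R and CRB3; 8.86% of all genes) and 2 higher (MARVELD3 and PARD3; 15.7% of all genes). Without KO IL-1α replicate 2 the counts were 11 lower (16.8% of all genes) and 5 higher (24.7% of all genes). In the additive model 24 of 34 were lower (43.8% of all genes), with a median of -0.24 against 0.05 over all genes. Without stimulation, where each genotype has 1 library and no test was made, 0 of the 34 differed by 2-fold or more, against 2.42% of all genes higher and 4.11% lower. The median was then -0.08 with 19 of 34 lower (51.2% of all genes), against -0.01 over all genes. The largest unstimulated log2 differences were -0.82 for GJB5, -0.80 for CLDN7, -0.76 for CRB3, -0.67 for TJP3 and -0.66 for CLDN4, and 0.82 for MARVELD2 and 0.74 for GJA1.

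**Figure D4:**
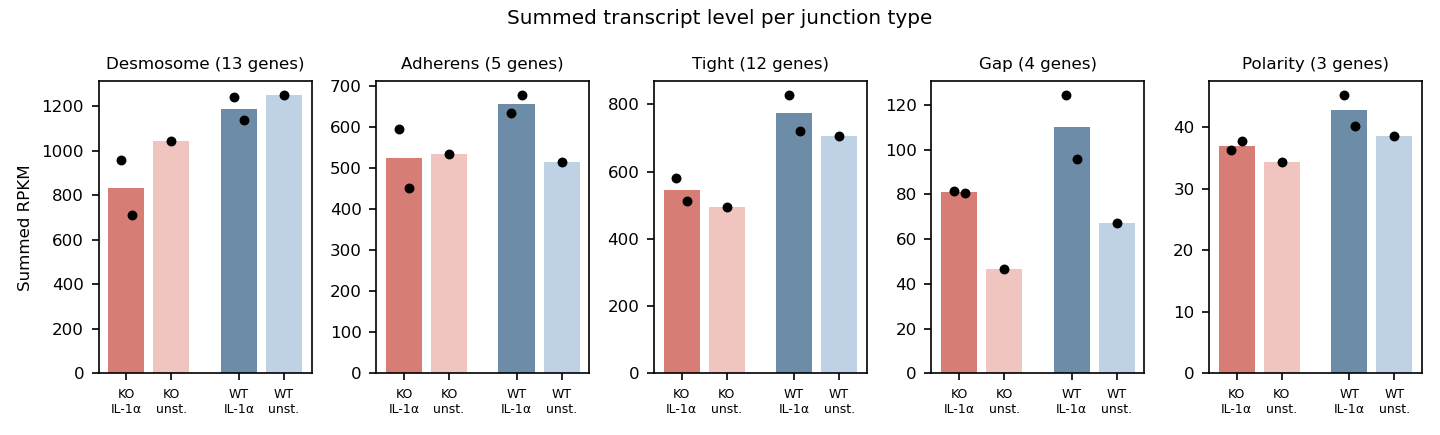
Summed RPKM of the listed genes of each junction type; bars are group means and points single libraries, 2 with IL-1α and 1 without (unst.) per genotype. The desmosome, tight junction and polarity sums of every KO library lie below those of every WT library. Without CLDN7 the tight junction sums would overlap, and of the 3 polarity genes CRB3 alone is lower in every KO library. The gap junction sum, which includes GJB2, is higher with IL-1α in both genotypes.

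Summed over their genes, desmosome transcripts came to 958, 712 and 1046 RPKM in the KO libraries, against 1241, 1137 and 1249 RPKM in the matching WT libraries, and tight junction transcripts to 580.1, 513 and 494 RPKM, against 827, 720.0 and 707 RPKM. Both sums were lower in every KO library, and JUP and CLDN7 make up a large share of them. CLDN7 gave 239.8 of the 580.1 RPKM in KO IL-1α replicate 1, and 376 of the 707 RPKM in the unstimulated WT library. Without CLDN7 the tight junction sums of the genotypes would overlap, while without JUP the desmosome sums would stay apart, narrowly. Adherens junction sums were 597, 452 and 536 RPKM in the KO libraries, against 635, 678 and 515 RPKM in the matching WT libraries, and overlapped. Gap junction sums were 81.7 and 80.7 RPKM in KO cells with IL-1α against 46.4 RPKM without it. In WT cells they were 124 and 96.0 RPKM with IL-1α against 67.4 RPKM without it. These sums include GJB2, while each of the other connexins summed overlapped between IL-1α and unstimulated libraries. Polarity sums were 36.3, 37.7 and 34.4 RPKM in the KO libraries, against 45.2, 40.3 and 38.6 RPKM in the matching WT libraries. These too were lower in every KO library than in any WT library. Of their 3 genes this held for CRB3 alone, while PARD3 was higher in every KO library and PARD6B overlapped. An exact permutation test of 2 against 2 or 3 against 3 libraries cannot go below a two-sided p of 0.333 or 0.1, so these sums are descriptions.

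The spread between replicates was not even among the junction genes. Between the KO IL-1α replicates, 8 of 34 lay at least 1.5-fold apart (DSG3, JUP, CDH3, CLDN1, CLDN4, TJP3, GJA1 and GJB6; 15.7% of all genes) and 4 at least 2-fold (DSG3, JUP, GJA1 and GJB6; 4.58% of all genes). All 8 were lower in replicate 2. Between the WT IL-1α replicates, 4 lay at least 1.5-fold apart (DSC2, TJP1, MARVELD2 and GJB6; 5.66% of all genes) and 0 at least 2-fold (1.44% of all genes). The median absolute log2 difference of the 34 genes was 0.32 between KO replicates and 0.22 between WT replicates, against 0.25 and 0.19 over all genes.

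**Figure D5:**
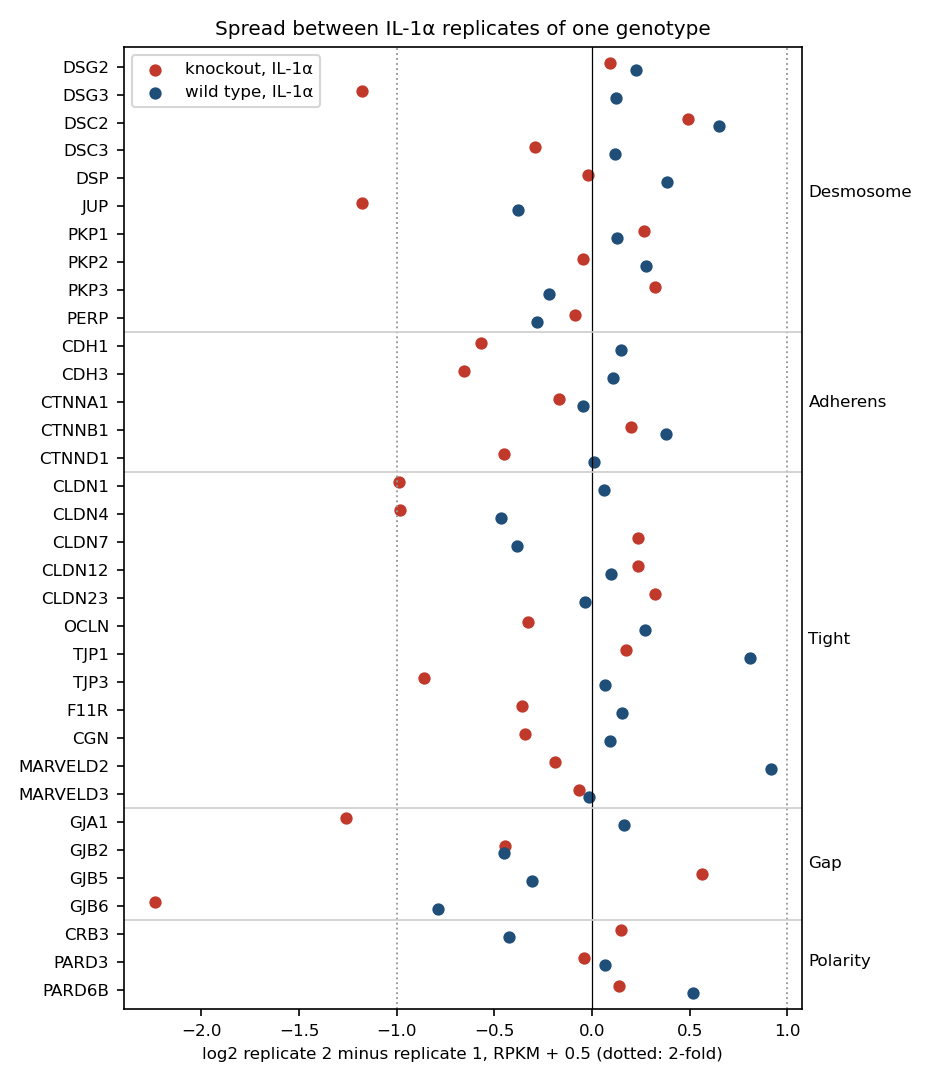
Log2 difference of IL-1α replicate 2 minus replicate 1 for each junction gene (RPKM + 0.5), red for the knockout pair and blue for the wild-type pair; dotted lines mark 2-fold. DSG3, JUP, GJA1 and GJB6 lie beyond the line in the knockout pair, at -1.18, -1.18, -1.26 and -2.24, and no gene does in the wild-type pair.

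Of 81 further junction genes, 46 were expressed, with 22 higher and 24 lower between genotypes in the additive model (median -0.04). Over all genes 56.2% were higher and 43.8% lower (median 0.05), and 1.34% passed as higher and 1.32% as lower. CDH4, which encodes R-cadherin, was at 4.82, 4.79 and 6.07 RPKM in the KO libraries, against 0.846, 1.27 and 1.39 RPKM in the matching WT libraries, with a log2 difference of 1.79 ± 0.171 (SE, adjusted p = 0.00469) and no overlap, so it rose past the threshold. Of 14 listed regulators of junction genes, 10 were expressed and 1 passed: ELF3, an epithelial ETS factor, was at 15.4, 11.6 and 18.4 RPKM in the KO libraries, against 37.9, 26.0 and 44.5 RPKM in the matching WT libraries. Its log2 difference was -1.22 ± 0.181 (SE, adjusted p = 0.0177). ELF3 no longer passed without WT IL-1α replicate 1 (adjusted p = 0.121) or without WT IL-1α replicate 2 (adjusted p = 0.0710), nor with no filter on low values (adjusted p = 0.0861).

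Under IL-1α alone none of these further genes passed. ELF3 was at -1.20 ± 0.239 (SE, adjusted p = 0.162) and CDH5, the cadherin of endothelium, at -1.27 ± 0.649 (SE, adjusted p = 0.410). The CDH5 values were 10.3 and 1.84 RPKM in KO cells with IL-1α against 2.94 RPKM without it, and 11.4 and 11.8 RPKM in WT cells with IL-1α against 1.45 RPKM without it, so the KO IL-1α replicates disagreed. The CDH5 difference was -0.17 without KO IL-1α replicate 2 and -2.37 without KO IL-1α replicate 1. On the other side, GJC1 (connexin 45) was at 0.68 ± 0.196 (SE, adjusted p = 0.231), CTNNAL1 (a catenin-like protein) at 0.54 ± 0.152 (SE, adjusted p = 0.223) and GRHL2, a grainyhead-like factor of epithelia, at 0.43 ± 0.173 (SE, adjusted p = 0.329). Without stimulation the differences beyond those of ELF3 (-1.26) and CDH4 (1.80) were -0.74 for PRKCZ, an atypical protein kinase C, 0.76 for AMOTL1, a motin of tight junctions, and 0.67 for TP63, the master factor of stratified epithelium.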

How the data were processed

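Libraries were made from poly-A RNA with a stranded TruSeq kit, per the labels' protocols. Reads were handled with bcl2fastq (2.20.0.422), STAR and HOMER on hg19, per the submitters' processing notes; versions of STAR and HOMER are not given in the sources used here. The deposited table holds RPKM per gene symbol, counted over exons with HOMER's analyzeRepeats, per the file headers, which do not state the strand setting. Other deposited columns give transcript length and the number of annotated places; they were read only as annotation. Depth was recovered as the read number that turns RPKM of 0.02 to 1 into whole reads (97.9% to 99.8% within 0.1 read).

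The 12925 genes that reached 1 RPKM in some library entered limma 3.58.1 (R 4.3.3) on the log2(RPKM + 0.5) scale, with empirical Bayes with a variance trend, and Benjamini-Hochberg adjustment over all genes at 0.05. One model had 1 coefficient per group (2 residual and 4.2 prior degrees of freedom), the other additive genotype and stimulation (3 and 5.01). The unstimulated genotypes were compared by fold alone. The pseudocount makes fold changes of low genes smaller. Read ratios carry exact 95% intervals (scipy 1.17.1). Promoter windows are those of RefSeq (GRCh38.p14), matched by symbol.

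The genes, lists and rules were chosen with earlier results of these data known. Changes with SE and adjusted p are printed for junction genes that pass, that differ by 1.5-fold, or that lead their junction type; further junction genes and regulators are named when they pass, or for up to 3 of the largest rises and falls at a mean of 5 RPKM, except 1 gene that is not reported here. Alternatives were other pseudocounts, filters, scaling, a length correction, no variance trend, voom weights, each replicate left out and a replicate block.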

Additional observations from a re-analysis of the deposited data

How the results depend on the processing

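For KO minus WT under IL-1α, the response difference and IL-1α in KO cells, the number of junction genes with an adjusted p under 0.05 was 0 under every setting tried. Without stimulation, where no test was made, 0 differed between genotypes by 2-fold under the settings tried. In the additive genotype comparison it was 0 to 2 when 1 replicate was left out. It was 2 (GJB5 and GJA1) without KO IL-1α replicate 2, where 911 of all 12925 genes passed. For IL-1α in WT cells it was 1, GJB2, with a filter of 1 RPKM in 2 libraries (adjusted p = 0.0254) and with the length trend removed (adjusted p = 0.0368). For the additive IL-1α comparison it was 0 with no filter and 0 to 2 when 1 replicate was left out: 2 without KO IL-1α replicate 1 or 2, and 0 without WT IL-1α replicate 2. GJB6 changed direction without KO IL-1α replicate 2, to 0.43 for IL-1α in KO cells (-0.69 with both, -1.82 without replicate 1) and 0.41 for the response difference (-0.71 with both, -1.83 without replicate 1). The cause of these shifts was not tested.

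Counts over all genes moved more. Under IL-1α the 20 genes called between genotypes became 7 with a pseudocount of 0.1, 0 with no filter, with no variance trend or without any 1 replicate, 76 with the filter in 2 libraries, 41 with the length trend removed and 55 with voom. The additive genotype count of 343 became 63 with no filter, 526 with voom and 14 to 911 when 1 replicate was left out. For IL-1α in KO cells 9 became 5 with a pseudocount of 1, 65 with no filter, 38 with the filter in 2 libraries, 20 with the length trend removed, 4 with no variance trend, 2 with voom and 0 without either replicate. For IL-1α in WT cells 28 became 49, 100, 48 with median-of-ratios rescaling, 78 with the length trend removed, 11 with voom and 0 without either replicate, the first 2 of these with no filter and with the filter in 2 libraries. The additive IL-1α count of 138 became 37 with no filter, 217 with voom and 17 to 224 when 1 replicate was left out. The response difference had 0, and 87 with no filter. With a replicate block on the 4 IL-1α libraries 62 genes and 0 junction genes passed between genotypes. The labels do not say whether same-numbered libraries belong together. Their deviations correlated at 0.0086 over 12925 genes, so no shared shift was seen, but this cannot show how the libraries were made.

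Limits: 2 libraries a group and 1 unstimulated library a genotype leave few degrees of freedom. The KO IL-1α replicates disagree on the size of several junction differences, and GJB6, with 9 to 121 reads per library, is read least precisely. The counts of junction genes without overlap when KO IL-1α replicate 2 is left out were added after the data had been seen.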
